A study of Arabidopsis thaliana with 16 samples.

Results

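The YABBY genes of Arabidopsis thaliana examined here are YAB1 (AT2G45190, also called FILAMENTOUS FLOWER), YAB3 (AT4G00180), YAB5 (AT2G26580) and INO (AT1G23420, INNER NO OUTER). They were chosen by locus, each is read by 1 probe set of the Affymetrix ATH1 array, and they are 4 of 13624 genes with a named probe set and 4 of the 22746 probe sets tested. Transcript levels were measured in carpels cut by hand from flowers of stages 8 to 10, in 4 genotypes with 4 arrays each. Plants of the first genotype, called seu ant, carried both the seuss-3 (seu-3) and the aintegumenta-1 (ant-1) alleles. The second carried seuss-3 alone (seu), the third aintegumenta-1 alone (ant), and the fourth was the Col-0 wild type. All plants were grown in long days at 1 temperature, no plant age beyond the floral stage is given, and each array held the pooled RNA of 15 to 25 gynoecia. Each mutation is represented by a single allele, and all mutant comparisons share the same wild-type arrays.

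YABBY proteins are plant-specific transcription factors with a zinc finger and an HMG-like DNA-binding domain. Leaves and floral organs have an outer, abaxial face and an inner, adaxial face, and most YABBY genes are active at the abaxial face, where their loss leads to narrow organs. In the gynoecium, YAB1 and YAB3 are known for abaxial expression in the valves, the future fruit walls, and for overlapping roles with each other. YAB5 is known mainly from leaves, and INO from the outer integument of the ovule, a layer that forms after ovule primordia arise. YABBY proteins bind co-regulators of the LEUNIG and SEUSS families, and SEU, a member of the second family, is one of the genes mutated here. ANT is an AP2-type transcription factor that promotes organ growth. The question addressed was how loss of SEU, of ANT or of both changed YABBY transcript levels in the young gynoecium.

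Signals are the deposited MAS5 intensities, in arbitrary units on a linear scale that is common to all arrays (2% trimmed mean 500 on each). Signals under 16 were set to 16 before log2 was taken, a floor that lay above 20.0% to 24.4% of the values of an array. Arrays of one genotype correlated at 0.972 to 0.986. The SEU probe set, read first to test the labels, gave 235 to 273 in seu ant and 181 to 340 in seu, against 749 to 943 in ant and 786 to 978 in wild type, so the 8 arrays labelled with the seuss-3 allele lay below the 8 others. ANT itself is not analysed here. SPT, a bHLH gene of the carpel margin, was the one carpel marker of 6 with a named probe set, and it read 365 to 534 in seu ant, 558 to 954 in seu and 645 to 994 in ant, against 915 to 1372 in wild type. The defining carpel gene AG is not analysed here. Of 6 anther genes, AMS, A9 and SPL had a named probe set, and their summed signal per array was 20.1 to 54.0 in seu ant, 21.3 to 55.7 in seu and 36.3 to 78.4 in ant, against 35.5 to 123 in wild type. Of their 12 values per genotype, 8 were under the floor in seu ant, 9 in seu, 5 in ant and 5 in wild type, so these anther genes were at or near the floor in all 4 genotypes.

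A probe set was called different at a Benjamini-Hochberg adjusted p under 0.05 over all 22746 probe sets, together with a log2 difference over 0.35, from a limma model with 1 mean per genotype. Of the 4 YABBY genes, 2, YAB1 and YAB3, were called lower in seu ant than in wild type, where 11.4% of all probe sets were called lower. In seu none of the 4 was called lower, beside a background of 0.914%, and in ant 1 of the 4 was, YAB3, beside 3.03%. The median log2 difference of the 4 genes was -0.71 in seu ant, -0.45 in seu and -0.52 in ant, beside -0.031, -0.018 and -0.020 over all probe sets. No YABBY gene was called higher in these comparisons, beside 8.3% of all probe sets in seu ant, 1.27% in seu and 1.89% in ant. With pooled organs, fewer cells that make a transcript and less transcript per cell cannot be told apart.

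**Figure D1:**
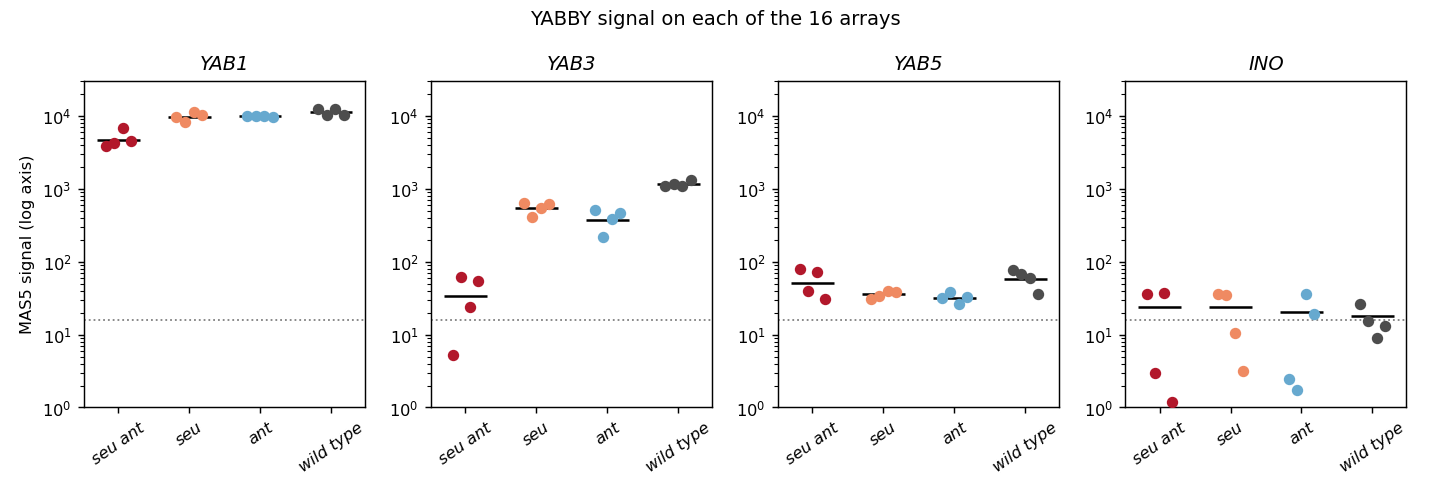
MAS5 signal (log axis) of YAB1, YAB3, YAB5 and INO on each of the 16 arrays, by genotype. Points are arrays, bars are geometric means of signals floored at 16, and the dotted line is that floor; the seu ant arrays lie below all other arrays for YAB1 and YAB3, while the genotypes overlap for YAB5 and INO.

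YAB3, one of the pair of YABBY genes that act in the valves, changed the most of the 4. Its signal was 5.18, 61.1, 23.9 and 54.9 on the seu ant arrays. It was 630, 406, 546 and 614 in seu and 510, 220, 382 and 468 in ant. It was 1090, 1175, 1098 and 1313 in wild type. The seu ant arrays did not overlap those of any other genotype, and every array of either single mutant lay below every wild-type array. Among the seu ant arrays, that of replicate 1 was under the floor, and the 3 others were within 4 times the floor, so the level there is close to the least that the floored scale can show. The geometric mean of the floored signal was 33.7 in seu ant, 541 in seu, 376 in ant and 1166 in wild type.

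In seu ant, YAB3 thus stood at 2.89% of its wild-type level (95% interval 1.63% to 5.13%, limma adjusted p = 2.48e-06, lower in 4 of 4 arrays). Ordered over all 22746 probe sets by this log2 difference, its place was 2, counted from the lowest. The size depends in part on the floor: the log2 difference of -5.11 (standard error 0.38) became -4.76 with a floor of 32 and -4.67 with log2(signal + 16), and the call held in both. Within the arrays whose label numbers fall in the lower and the upper 8 of the series, with 2 arrays of each genotype in each part, the difference was -5.18 and -5.05.

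In the single mutants YAB3 fell part of the way. In ant its level was 32.3% of that in wild type (95% interval 18.2% to 57.4%, limma adjusted p = 0.0293). In seu it was 46.4% (95% interval 26.1% to 82.5%, limma adjusted p = 0.194), which was not called. The seu and wild-type arrays did not overlap, but the share of all probe sets without such overlap is not given here. The 2 single mutants did not differ beyond their spread, with a log2 difference of seu over ant of 0.52 (95% interval -0.31 to 1.35, limma adjusted p = 0.578). Of the 22746 probe sets, 666 were called between seu and ant, 240 of them (1.06% of all) lower in seu. None of the 4 YABBY genes was called in either direction.

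The spread of YAB3 weighs on these calls. The standard deviation of its log2 signal around the genotype means was 0.565, against a median of 0.222 over the 500 probe sets of nearest mean signal, and by genotype it was 0.94 in seu ant, 0.29 in seu, 0.55 in ant and 0.12 in wild type. The model pools these into 1 value. When only seu and wild-type arrays entered the fit, the same log2 difference of -1.11 in seu was called (limma adjusted p = 0.0296). The call in ant was lost, with the direction kept, when 1 of 5 arrays was left out: ant replicate 2 (log2 difference -1.37), ant replicate 3 (-1.64), wild type replicate 1 (-1.66), wild type replicate 3 (-1.66) or wild type replicate 4 (-1.57), with limma adjusted p = 0.0605 to 0.0761.

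YAB1, the close relative with overlapping function, changed less, and was called lower in seu ant but in neither single mutant. Its signal was 3806, 4257, 6764 and 4463 on the seu ant arrays. It was 9634, 8264, 11206 and 10174 in seu and 9789, 9894, 9976 and 9695 in ant. It was 12409, 10384, 12437 and 10133 in wild type. All 4 seu ant arrays lay below the 12 others, the seu and wild-type arrays overlapped, and the ant arrays lay below the wild-type arrays by a small step. The size of that step depended on the scaling of the arrays. Its log2 difference was -0.20 in the main model, -0.34 with quantile normalization and -0.039 with arrays centred on the median. YAB1 was bright throughout, between the 96.6th and the 99.5th percentile of the probe sets of its array, a place that also depends on the probes and so is not set against that of another gene.

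In seu ant, YAB1 stood at 41.7% of its wild-type level (95% interval 33.3% to 52.2%, log2 difference -1.26, limma adjusted p = 6.92e-05, lower in 4 of 4 arrays). The array of seu ant replicate 3, at 6764, was the highest of its group, and without it the log2 difference was -1.44. Within the lower and upper 8 label numbers the difference was -1.50 and -1.03. In seu the level was 86.5% (95% interval 69.0% to 108%, limma adjusted p = 0.618) and in ant 87.1% (95% interval 69.6% to 109%, limma adjusted p = 0.524) of wild type, and neither passed the test. The order of the geometric means was 4703 in seu ant, 9761 in seu, 9838 in ant and 11288 in wild type, of which the upper 3 were not separated by the test.

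**Figure D2:**
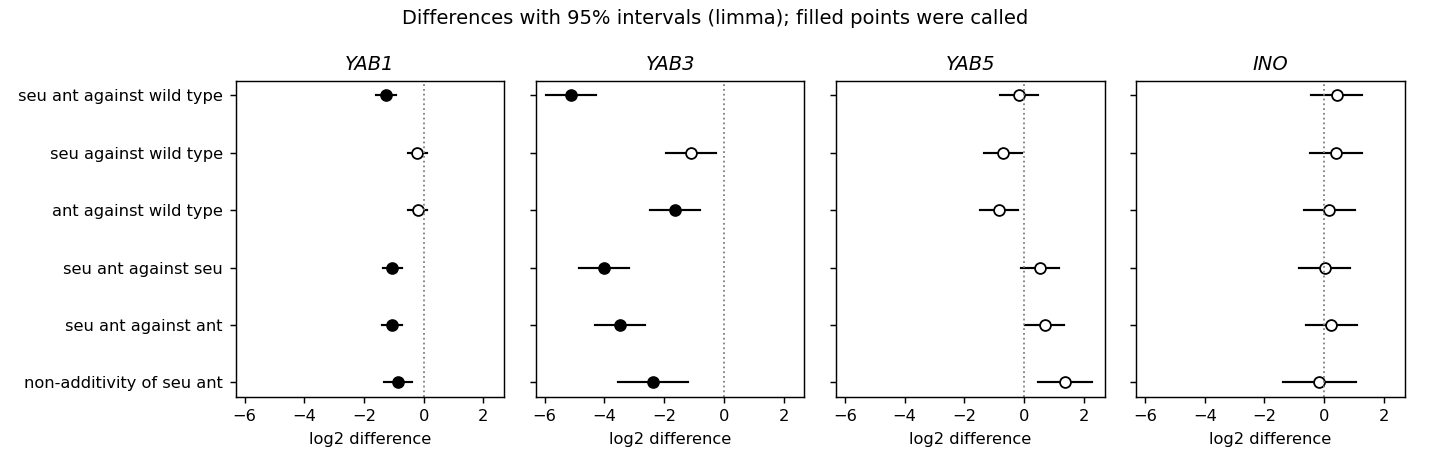
Log2 differences of the 4 YABBY genes in 6 comparisons (x axis), with 95% intervals from the limma model over 16 arrays; filled points were called. YAB1 and YAB3 are called lower in every comparison with seu ant as the first genotype and in the non-additivity contrast, YAB3 also in ant, and no interval for INO leaves 0.

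Set against each single mutant, seu ant showed the same pair of genes. Against seu, 2 of the 4 YABBY genes were called lower, beside 5.5% of all probe sets: YAB3 at 6.22% of the seu level (95% interval 3.50% to 11.1%, limma adjusted p = 7.79e-05) and YAB1 at 48.2% (95% interval 38.5% to 60.4%, limma adjusted p = 0.00104). Against ant, the same 2 were called lower, beside 9.32% of all probe sets: YAB3 at 8.95% of the ant level (95% interval 5.04% to 15.9%, limma adjusted p = 6.45e-05) and YAB1 at 47.8% (95% interval 38.2% to 59.9%, limma adjusted p = 0.000333). These comparisons share the seu ant arrays with each other and with the comparison to wild type.

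Whether the joint loss exceeded that expected from the single mutants was tested by taking the sum of both single-mutant log2 changes from the log2 change in seu ant, a scale on which independent effects multiply as ratios. Of the 4 YABBY genes, 2 were called lower than this expectation (adjusted p under 0.05), beside 2.33% of all probe sets. YAB3 was expected at 175 from the product of the single-mutant ratios and measured at 33.7, which is 19.3% of that (95% interval 8.55% to 43.4%, limma unadjusted p = 0.000743, adjusted p = 0.0270). YAB1 was expected at 8506 and measured at 4703, or 55.3% (95% interval 40.2% to 76.0%, limma unadjusted p = 0.00146, adjusted p = 0.0371). All 4 seu ant arrays lay below the expectation for both genes.

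On the linear scale, YAB3 could not be tested in this way. It lost 53.0% of its wild-type signal in seu and 66.2% in ant, which sum to 119%, more than the whole, so that the additive expectation is a negative signal (-225) that no array can fall below. The measured loss in seu ant was 96.7%, and the contrast of 264 signal units (limma adjusted p = 0.136) had its sign fixed by that expectation. YAB1 lost 57.5% in seu ant, against 13.4% in seu and 13.2% in ant. Its joint loss was larger than the sum of 26.7% on the linear scale too, with a contrast of -3494 signal units that did not pass the test there (limma adjusted p = 0.0815). On the log2 scale the call for YAB1 was lost in the one-way model without moderated variances (adjusted p = 0.0507). It was also lost on leaving out any 1 of 13 arrays, which were all 4 of ant, replicates 1, 3 and 4 of seu, and replicates 1, 2 and 4 of seu ant and of wild type (log2 contrast -0.90 to -0.75, limma adjusted p = 0.0507 to 0.0752). For YAB3 it was lost without ant replicate 4 (-2.27), seu replicate 1 (-2.30), seu replicate 3 (-2.37) or wild type replicate 1 (-2.34), with limma adjusted p = 0.0508 to 0.0532.

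**Figure D3:**
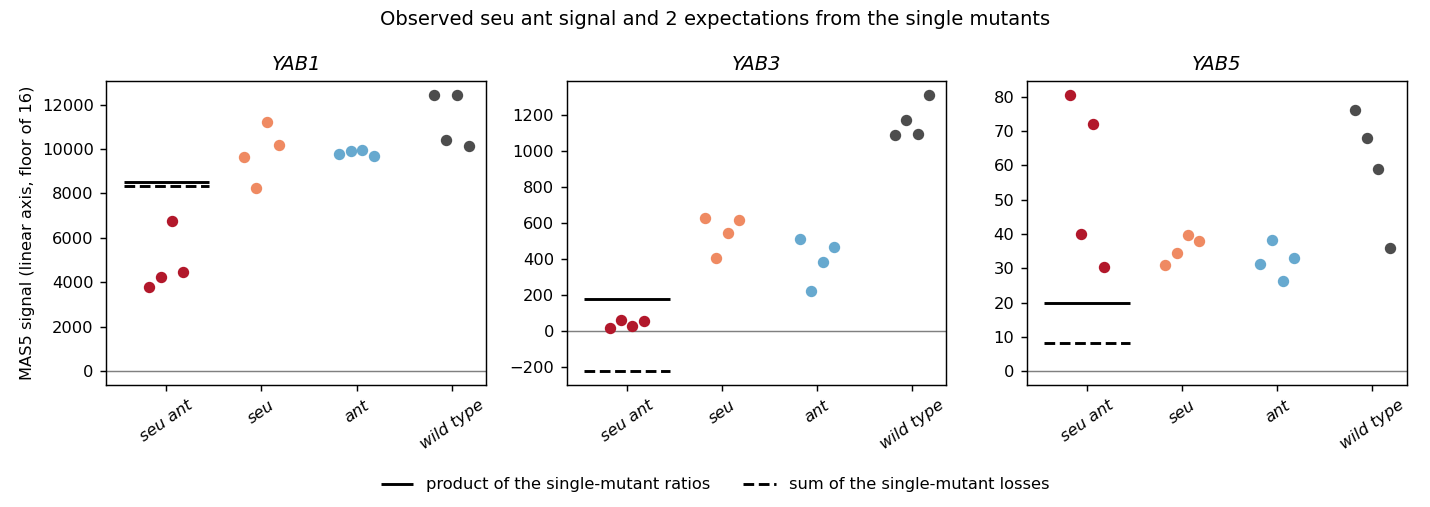
Signal of YAB1, YAB3 and YAB5 (linear axis, floored at 16) on each array by genotype, with the seu ant level expected from the product of the single-mutant ratios (solid bar) and from the sum of their losses (dashed bar). YAB1 points lie below both bars. YAB3 points lie below the solid bar at 175, with the dashed bar at -225, a level no signal can reach. YAB5 points lie above both bars, but the dashed bar, at 8.26, is under the floor of 16. No floored point can lie below that bar. The solid bar for YAB5, at 19.7, is just above the floor, and no YAB5 value was under the floor.

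YAB5, known mainly from leaf blades, was dim and showed another pattern. Its signal was 80.5, 39.8, 72.1 and 30.4 on the seu ant arrays. It was 30.9, 34.3, 39.5 and 38.0 in seu and 31.3, 38.3, 26.3 and 33.0 in ant. It was 76.0, 67.9, 58.8 and 35.9 in wild type. All 16 values were above the floor, every genotype overlapped every other, and the seu ant and wild-type arrays spread the most, by 2.65 and 2.11 times between lowest and highest. In seu ant the level was 89.6% of wild type (95% interval 57.5% to 140%, limma adjusted p = 0.787), an interval that holds both a fall and a rise.

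In the single mutants, YAB5 read 61.8% of wild type in seu (95% interval 39.7% to 96.3%, limma adjusted p = 0.322) and 55.6% in ant (95% interval 35.7% to 86.6%, limma adjusted p = 0.122), and neither was called. The product of these ratios gives an expectation of 19.7 in seu ant, against a measured geometric mean of 51.5. YAB5 thus lay above its expectation, where YAB1 and YAB3 lay below theirs. The YAB5 expectation is just above the floor, which leaves little room to read a signal below that expectation. The floor changed no YAB5 value, however, and the seu ant arrays, at 30.4 to 80.5, all lay above the expectation. The contrast was not called, so its direction is not read as a difference from YAB1 and YAB3. The log2 contrast of YAB5 was 1.38 (95% interval 0.48 to 2.29, limma unadjusted p = 0.00573, adjusted p = 0.0737). That contrast did not pass the adjusted threshold. It passed without seu ant replicate 4 (1.64, limma adjusted p = 0.0328) or without wild type replicate 4 (1.61, limma adjusted p = 0.0459), and without seu ant replicate 4 YAB5 was also called higher in seu ant than in ant (0.94, limma adjusted p = 0.0309), against 0.69 with all arrays (limma adjusted p = 0.124). Within the lower and upper 8 label numbers the difference in seu was -1.14 and -0.25, that in ant -1.05 and -0.64, and that in seu ant -0.34 and 0.03.

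INO, which promotes growth of the outer integument, was at or near the floor. Its signal was 35.5, 3.001, 37.7 and 1.196 on the seu ant arrays. It was 36.3, 34.96, 10.5 and 3.21 in seu and 2.44, 1.76, 35.8 and 19.3 in ant. It was 26.5, 15.5, 8.97 and 13.1 in wild type. Of the 16 values, 9 were under the floor, with at least 2 in each genotype, and all genotypes overlapped. No percentage of the wild-type level is given for INO, since most of its values were under the floor, and none of its log2 differences, which depend on that floor, was called.

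Whether the genes of the family moved by different amounts was tested on the log2 ratio of 2 probe sets within an array. Scaling an array leaves this ratio unchanged unless a signal is at the floor, as YAB3 was on the array of seu ant replicate 1. The ratio itself also reflects the probes, so only its difference between seu ant and wild type is read. It was not tested whether bright probe sets, such as that of YAB1, and dim ones, such as that of YAB5, respond alike to a given change. YAB3 over YAB1 averaged -7.13 ± 1.04 in seu ant and -3.28 ± 0.28 in wild type (SD, n = 4 each, difference -3.85, exact two-sided permutation p = 0.0286). YAB3 over YAB5 averaged -0.61 ± 1.59 in seu ant and 4.34 ± 0.59 in wild type (difference -4.95, n = 4 each, exact permutation p = 0.0286). YAB1 over YAB5 averaged 6.51 ± 0.69 in seu ant and 7.62 ± 0.40 in wild type (difference -1.11, n = 4 each, exact permutation p = 0.0286). With 4 arrays against 4 the smallest two-sided p is 0.0286, which all 3 pairs reached, and adjustment over the 3 pairs leaves it as it is.

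In seu ant against wild type, the ratios ordered the genes by the size of their fall in signal: YAB3 fell more than YAB1, which fell relative to YAB5. For YAB1 over YAB5 the 4 seu ant values (5.56 to 7.20) lay below the 4 wild-type values (7.26 to 8.14). Without seu ant replicate 1 the difference was -0.79 and without any 1 wild-type array it was -1.23 to -0.93, and the exact permutation test, which is coarse at 3 arrays against 4, then gave an adjusted p = 0.0571. In the single mutants, YAB3 over YAB1 was -4.36 to -3.94 in seu and -5.49 to -4.26 in ant, all below the wild-type range of -3.51 to -2.95 and all above the seu ant range of -8.14 to -6.12. YAB1 over YAB5 went the other way there, with means of 8.10 in seu and 8.27 in ant against 7.62 in wild type. YAB3 over YAB5 was 3.57 to 4.35 in seu and 2.52 to 4.03 in ant, both overlapping the wild-type range of 3.84 to 5.19. The single-mutant ratios were not tested.

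**Figure D4:**
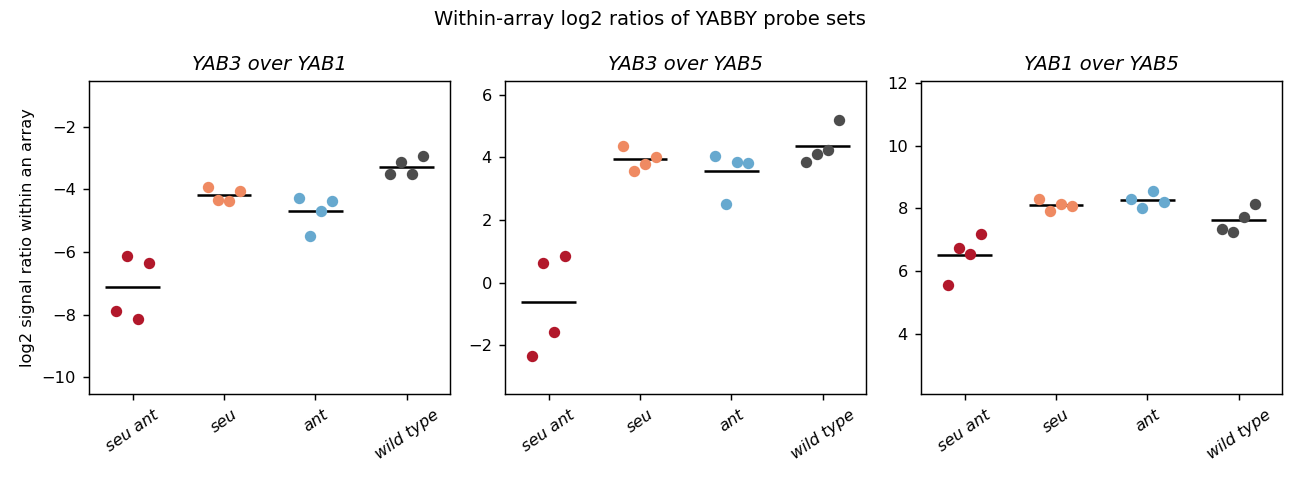
Log2 ratio of 2 YABBY probe sets within each array (y axis, each panel 10 log2 units high), by genotype; points are arrays and bars are means. The 4 seu ant arrays lie below the 4 wild-type arrays in all 3 panels, by the widest margin for YAB3 over YAB5.

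Across the 16 arrays, YAB1 and YAB3 correlated at r = 0.89, a value set by the genotypes they share; after the genotype means were taken out it was -0.05. YAB3 and YAB5 correlated at -0.22 over all arrays and at -0.73 after the genotype means were taken out, and at -0.35 in the 12 arrays outside seu ant. In seu ant, the 2 arrays with the lower YAB3 signals (5.18 and 23.9) had the higher YAB5 signals (80.5 and 72.1). These are descriptions over 16 pools, and the lowest YAB3 value is set by the floor.

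The genes whose log2 signal was most like that of each YABBY gene over the 16 arrays were sought among 8998 other probe sets that name 1 gene and are under the floor on at most 4 arrays (8999 for INO). For YAB3 they were IAA30, an Aux/IAA gene of auxin response (r = 0.97), AT1G03720 (r = 0.96) and UGT74F1, a glucosyltransferase of salicylic acid (r = 0.95). AT1G03720 read 27.6 to 60.2 in seu ant, 482 to 626 in seu and 316 to 454 in ant, against 1058 to 1366 in wild type, with the genotypes in the same order as for YAB3. For YAB1 they were AT5G66940 (r = 0.96), AT1G04030 (r = 0.96) and AT1G68780 (r = 0.95), of which AT5G66940 read 173 to 408 in seu ant, 1227 to 2096 in seu and 1681 to 2339 in ant, against 2320 to 2743 in wild type. For YAB5 the best values were lower, with AT5G27290 (r = 0.77), AT5G10690 (r = 0.75) and LPA2 (r = 0.75), and for INO lower still, with AT2G20690 (r = 0.69), AT4G39420 (r = 0.68) and AT2G20050 (r = 0.66). The arrays share their genotypes, and by Spearman's rho none of the leading 3 stayed for YAB1 or YAB3, and 1 stayed for YAB5 and 1 for INO. By r after the genotype means were taken out, none of the leading 3 stayed for YAB1, YAB3 or YAB5, and 2 stayed for INO.

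Genes that act with YABBY proteins or on the same organ axis were taken from 10 lists with 38 genes, of which 9 have a named probe set; CRC and YAB2, the other YABBY genes, and the abaxial ARF, AS, KNOX and WOX lists are not analysed here. In seu ant, 5 of the 9 were called lower, among them SEU, the mutated gene itself, 1 was called higher and 3 did not pass the test, where 11.4% of all probe sets were called lower and 8.3% higher, with a median log2 difference of -0.56 beside -0.031 over all probe sets. In seu, 3 of the 9 were called lower, again with SEU, and none higher, beside 0.914% and 1.27% of all probe sets. In ant 1 was called lower and 1 higher, beside 3.03% and 1.89%.

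Among the polarity genes, both sides of the organ axis were represented. PHV, which promotes adaxial identity and is the 1 named of 5 HD-ZIP III genes, read 717 to 943 in seu ant and 1784 to 2748 in wild type (log2 difference -1.46, limma adjusted p = 4.02e-05), with 1621 to 2378 in seu and 1652 to 2447 in ant. KAN3, 1 of 2 named KANADI genes of abaxial identity, read 95.03 to 170 in seu ant and 182 to 289 in wild type (log2 difference -0.79, limma adjusted p = 0.0243). KAN2, the other, read 668 to 783 in seu ant and 792 to 917 in wild type (log2 difference -0.18, limma adjusted p = 0.130) and was called lower in seu, where it read 563 to 669 (log2 difference -0.43, limma adjusted p = 0.0106). YAB3 and YAB1 were thus accompanied by lower PHV and KAN3 in seu ant.

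NUB and JAG, related zinc finger genes that promote organ growth, of which JAG acts with YAB1 and YAB3 in fruit patterning, were both called lower in seu ant. NUB read 59.5 to 141 in seu ant, 162 to 238 in seu and 197 to 265 in ant, against 409 to 654 in wild type, with no overlap between seu ant, the single mutants and wild type, and its log2 differences were -2.65 in seu ant, -1.49 in seu and -1.32 in ant, all called (limma adjusted p = 1.01e-05, 0.00670 and 0.0108). JAG read 263 to 404 in seu ant and 357 to 611 in wild type (log2 difference -0.56, limma adjusted p = 0.0254) and was called in neither single mutant.

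Of the co-regulators that bind YABBY proteins, 2 of 5 had a named probe set. SEU itself was lower wherever it was mutated, as given above. SLK1, a SEUSS-like gene, read 152 to 203 in seu ant and 183 to 243 in wild type and was called in no comparison with wild type (limma adjusted p = 0.424 to 1). ALC, a bHLH gene of the valve margin and the 1 named of 6 valve genes, was the 1 listed gene that rose, to 3291 to 4047 in seu ant, against 1366 to 1513 in wild type (log2 difference 1.29, limma adjusted p = 1.48e-06). It also rose in ant, to 2041 to 2651 (log2 difference 0.66, limma adjusted p = 0.00226). HLL, required for ovule growth and the 1 named of 6 genes on the integument list, read 1016 to 1375 in seu ant and 1229 to 1629 in wild type (log2 difference -0.24, limma adjusted p = 0.135).

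**Figure D5:**
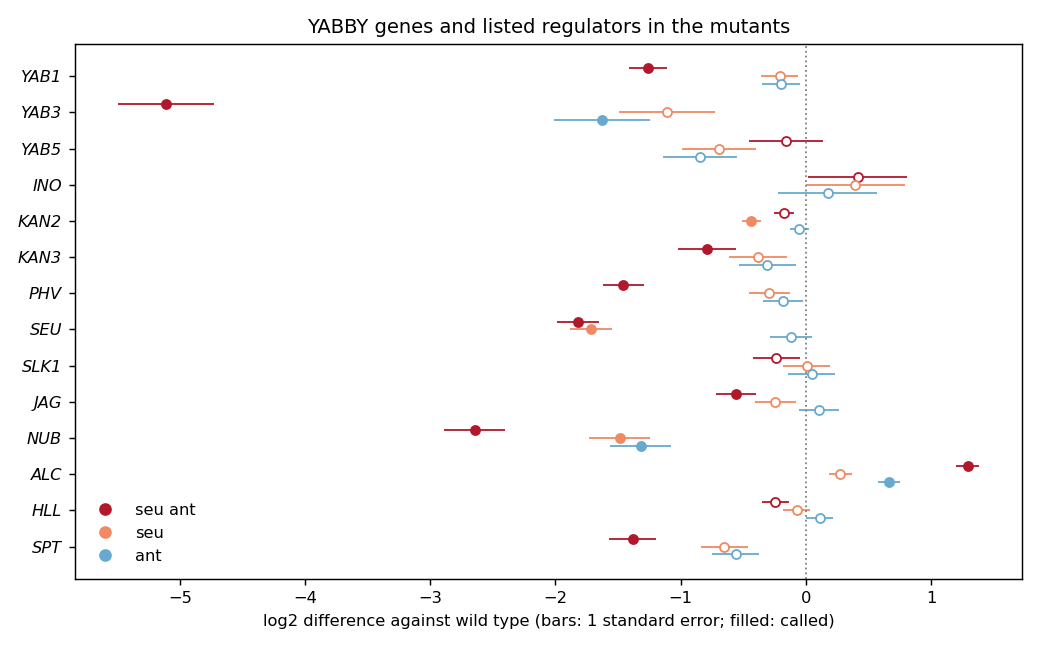
Log2 difference against wild type (x axis) of the YABBY genes, the 9 listed regulators and SPT in seu ant, seu and ant; bars are 1 standard error from limma and filled points were called. YAB3 in seu ant is the farthest left at -5.11, NUB is called lower in all 3 mutants, and ALC lies to the right in seu ant at 1.29.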

How the data were processed

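The authors deposited MAS5 signal intensities on a linear scale, 1 column per array; MAS5 is named in the submitters' processing notes, which give no version. RNA had been amplified and labelled with a 3' kit. The deposited values carry no detection calls, so the precision rests on the spread among 4 pools per genotype. Samples were grouped by their genotype label. From the 22810 rows, 64 AFFX controls were left out, 16 was used as the lowest signal, and values were then taken to log2. The study's own loess-normalized values were not used. Models were fitted with limma 3.58.1 (R 4.3.3, statmod 1.5.0) over all 16 arrays, with empirical Bayes moderation (prior degrees of freedom 1.04) and Benjamini-Hochberg adjustment; intervals are 95% and unadjusted. The fit was tested on simulated data. Within-array ratios were compared by exact two-sided permutation tests (Python 3.11.15, SciPy 1.17.1). Figures used matplotlib 3.10.9.

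Probe sets were named through the platform annotation (13513) or, where that named none, through a supplementary probe list (343, among them YAB1); both named the same gene for 479 of 481. A gene with several probe sets was read by its brightest. Files and labels name no genome build, so no coordinates are given, and protein and promoter sequences are not used here. The genes named are the 4 YABBY genes, listed regulators and markers with a named probe set (up to 4 a list, by size of change in seu ant), and the 3 genes most like each YABBY gene. The YABBY genes, the lists and the tests were chosen with earlier results of these data known. Alternatives were another floor, log2(signal + 16), median centring, quantile normalization, a filter on low signals, one-way ANOVA, trended and robust moderation, array weights, a block for the number in the array label, fits of the compared genotypes only, a linear additive model and leaving out each array. The comparison of seu with ant was added after the data had been seen.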

Additional observations from a re-analysis of the deposited data

Results flagged for a closer look

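The change of YAB1 and YAB3 on loss of ANT differed with and without SEU by the interaction term on the log2 scale, in the model of all 16 arrays. This term is the non-additivity contrast given above, seen from the side of ANT, and is not a second test. The term was -2.38 for YAB3 (standard error 0.54, limma adjusted p = 0.0270) and -0.85 for YAB1 (standard error 0.21, limma adjusted p = 0.0371). Both are lower in seu ant than the product of the single-mutant ratios. The call for YAB1 was lost without any 1 of 13 arrays, in the one-way model without moderated variances (adjusted p = 0.0507) and on the linear scale (limma adjusted p = 0.0815), and that for YAB3 without any 1 of 4 arrays (limma adjusted p = 0.0508 to 0.0532).

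One wild-type array stood apart for INO, by a gap equal to the whole range of its group on the log2 scale (ratio 1). That array read 26.5, and the 3 others, at 15.5, 13.1 and 8.97, were all set to the floor of 16, so the ratio of 1 follows from the floor. Of 16 gene and genotype groups examined this was the one that stood out, where chance gives about 1 in 20.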

How the results depend on the processing

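No paired analysis was possible because the labels give no replicate numbers; those used here follow the order of deposit and only name the arrays. A block for the lower and upper 8 array label numbers, which pairs no arrays, changed no call of a YABBY gene. YAB1 and YAB3 were called lower in seu ant against wild type, seu and ant under all 10 other settings and without any 1 array. YAB3 in seu was called only where the other genotypes left the fit (-1.11), which makes 1 YABBY gene called there in place of none. For the non-additive contrast, 2 genes were called in the main model, 1 by one-way ANOVA, where YAB1 (-0.85) was lost, and 0 by the linear additive model, with -3494 signal units for YAB1 and 264 for YAB3, whose turn of sign follows from a negative expectation. Leaving out 1 array gave 0 to 2 called genes there, with -1.03 to -0.75 for YAB1, -2.66 to -2.02 for YAB3, 1.17 to 1.64 for YAB5 and -0.37 to 0.11 for INO. In ant it gave 0 to 1 called genes, with -1.78 to -1.37 for YAB3. Without 1 array YAB5 ranged from -0.38 to 0.095 in seu ant against wild type and from 0.47 to 0.94 against ant, and the ratio of YAB1 over YAB5 from -1.33 to -0.79.

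The other signs that turned were of small uncalled differences. With log2(signal + 16), INO was -0.027 in seu ant and -0.18 in ant against wild type, -0.15 in seu ant against seu, and 0.028 in the non-additive contrast. In seu ant against seu it was -0.037 with quantile normalization and -0.15 with array weights. Without 1 array INO ranged from -0.092 to 0.36 in ant and from -0.19 to 0.22 in seu ant against seu. YAB1 in seu against ant was 0.061 with quantile normalization and -0.078 to 0.069 without 1 array. The cause of these changes was not tested. Over all probe sets, 498 were called in seu and 1120 in ant against wild type, with 233 and 390 where only the genotypes compared entered the fit; without 1 array the counts ran from 274 to 529 in seu and from 530 to 1229 in ant. The 1163 called as non-additive became 684 to 1461 without 1 array, and the 666 between seu and ant became 411 to 693. YAB5 was dim and INO at or near the floor, and with 4 arrays per genotype the intervals of both were wide. Their standard errors in seu ant against wild type were 0.30 and 0.40, beside 0.38 for YAB3 and 0.15 for YAB1.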
